A study of Mus musculus with 2 samples.

Results

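The BCL2 family decides, at the outer membrane of the mitochondrion, whether a cell survives or dies by apoptosis. The 10 members described here are Mcl1, Bcl2l1, Bcl2 and Bcl2a1b, which keep cells alive, Bax and Bak1, which open the membrane, and Bid, Bcl2l11, Bbc3 and Pmaip1, the BH3-only proteins that set the balance between them. They were taken by symbol from the 32285 genes that the files list, and each symbol matched 1 gene. The RNA comes from subcutaneous tumours grown in C57BL/6 mice from CMT167R, a derivative of the mouse lung carcinoma line CMT167 that the labels call resistant to anti-PD1 antibody, with genotype given as WT. One single-cell library came from tumours of mice that received PKCi by daily intraperitoneal dosing at 3 mg/kg, an agent whose label is not spelled out, and 1 from mice that received the control solvent. Tumours were taken when control tumours had reached 400 mm3, and how many mice went into a library is not given. With 1 library per treatment there is no replicate, so no difference below has a test, and every interval covers counting error only.

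Pro-survival members bind Bax, Bak1 and the BH3-only proteins in a groove on their surface. BH3-only proteins relay stress: Bcl2l11 (Bim) answers to lost growth signals, Bbc3 (Puma) and Pmaip1 (Noxa) are classic p53 targets that are also switched on in other kinds of stress, and Bid is cut by caspase-8 downstream of death receptors. Once Bax or Bak1 opens the membrane, cytochrome c leaves and caspases are activated. In leukocytes the choice of pro-survival protein differs by lineage: neutrophils lean on Mcl1 and Bcl2a1, and resting lymphocytes on Bcl2.

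The files held 7457 barcodes and 229219749 UMIs (unique molecular identifiers, each standing for 1 captured RNA molecule) in the PKCi library, against 6688 barcodes and 222641855 UMIs in the solvent library, with 20 barcode sequences in both. After filters, 7078 PKCi and 6269 solvent cells remained, with medians of 29550 and 32992 UMIs. Cells were clustered without the apoptosis genes and classes were named from marker genes. The main population, 5372 PKCi cells and 4900 solvent cells, matched no leukocyte, endothelial or stromal list and carried Krt8, a keratin of simple epithelium, at 481 and 380 CPM (a gene's UMIs among each 1000000 that the class sum holds). Epcam, which marks most carcinomas, was near 0 in it, and Krt18 was at 4.6 and 6.8 CPM. Xist was at 1.0 CPM in both libraries of it, against at least 78.0 CPM in every other named class. Rhox5 was at 469 and 540 CPM, against at most 111 CPM in those classes. These levels set it apart from the other named classes. It keeps the name given by this rule, and its identity as tumour cells was not tested. The other classes compared were monocyte-like (488 and 576 cells), macrophage-like (554 and 185) and neutrophil-like (167 and 267). T cell-like (119 and 65), NK cell-like (51 and 36), dendritic cell-like (51 and 22), endothelial-like (20 and 11) and fibroblast-like cells (26 and 24) had under 100 cells in at least 1 library and are given as levels.

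**Figure D1:**
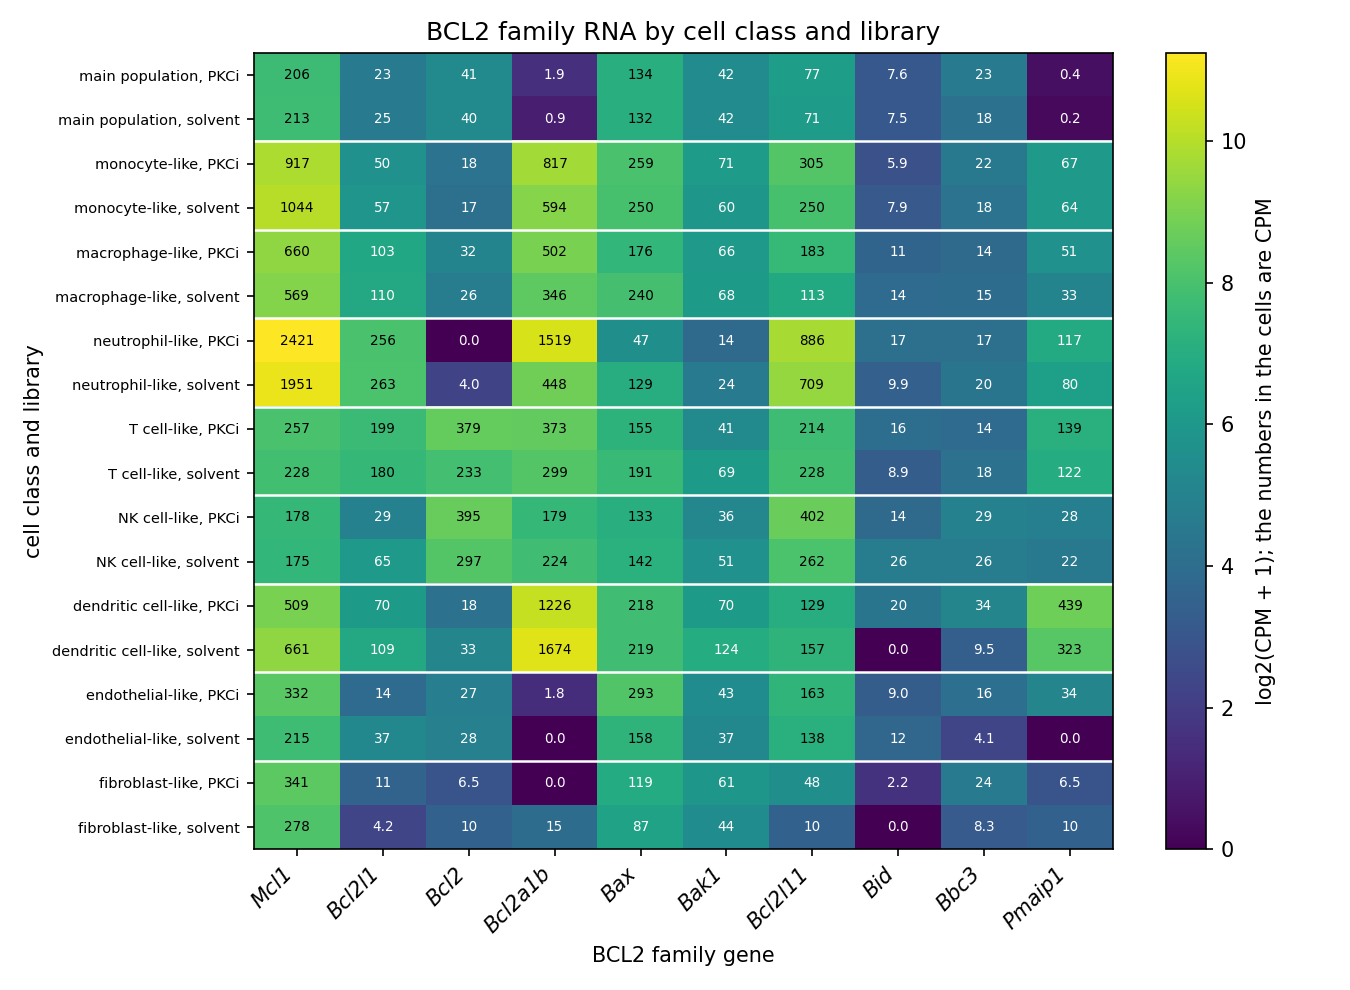
Level of each BCL2 family gene (columns) in each cell class and library (rows, PKCi above solvent). Colour is log2(CPM + 1) of the class sum and the printed number is CPM; Mcl1 stands highest in both neutrophil-like rows, at 2421 and 1951, and Bcl2a1b and Pmaip1 are near 0 in both rows of the main population.

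Mcl1 (chr3:95658788-95663176, plus strand, GRCm38), whose protein turns over quickly, was measured in all 9 classes and varied with lineage far more than with treatment. Neutrophil-like cells held 2421 CPM in the PKCi library and 1951 CPM in the solvent library. Monocyte-like cells held 917 and 1044.5 CPM, and macrophage-like cells 659.9 and 569 CPM. These 3 classes stood in that order with intervals of both libraries apart, and dendritic cell-like cells, at 509 and 661 CPM, overlapped the macrophage-like ones. Below them the fibroblast-like (341 and 278), endothelial-like (332 and 215), T cell-like (257 and 228), main (206 and 213) and NK cell-like cells (178 and 175 CPM) followed, each overlapping its neighbour.

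Between the libraries, the PKCi to solvent ratio of Mcl1 was 0.97 in the main population (0.95 to 0.98), 0.88 in monocyte-like (0.84 to 0.92), 1.16 in macrophage-like (1.10 to 1.22) and 1.24 in neutrophil-like cells (1.14 to 1.34). The monocyte-like log2 ratio, -0.19, was 0.24 at clustering resolution 2.0, and the macrophage-like one, 0.21, was -0.23 at resolution 0.5 and -0.016 with at least 200 genes per barcode. The neutrophil-like one, 0.31, was 0.0035 with at least 1000 genes per barcode. By cluster, the neutrophil-like plain ratio was 1.51 (1.25 to 1.81) in the cluster led by Stfa genes. It was 0.94 (0.80 to 1.12) in the cluster led by G0s2, Hdc and Cxcr2. With each cell thinned to 5000 UMIs, 60.8% of PKCi and 61.1% of solvent cells of the main population held an Mcl1 UMI. The same share was 95.8% and 97.0% of monocyte-like cells and 94.6% and 82.5% of macrophage-like cells. Without thinning these shares were 95.8% and 97.9%, 96.9% and 98.8%, and 95.8% and 92.4% in the same order of classes. Thinning left out 197 and 48, 133 and 70, and 73 and 25 shallower cells. Scaling by the median ratio over genes in place of the total shifted all neutrophil-like log2 ratios by -0.39 and turned the sign for Mcl1 and Bcl2l11 there; in monocyte-like cells it shifted them by -0.14 and turned the sign for Bcl2, Bax and Pmaip1.

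Bcl2 (chr1:106538178-106714274, minus strand) marked the lymphocytes. NK cell-like cells held 395 CPM in the PKCi library and 297 CPM in the solvent library, and T cell-like cells 379 and 233 CPM. Both stood apart from the main population, where the level was 40.6 and 39.6 CPM. Macrophage-like cells held 32.2 and 25.8 CPM and monocyte-like cells 18.2 and 17 CPM. In neutrophil-like cells the gene gave 0 of 358886 UMIs in the PKCi library and 4 of 1007108 in the solvent library. The T cell-like ratio was 1.63 (1.29 to 2.07), from 242 and 105 UMIs, and the share of T cell-like cells with a Bcl2 UMI at 5000 UMIs was 65.1% of 43 PKCi cells and 37.9% of 29 solvent cells, with intervals of 49.1 to 79.0% and 20.7 to 57.7% that overlap. Without thinning it was 54.6% and 38.5%, and in monocyte-like cells at 5000 UMIs it was 6.20% and 5.53%. In the main population the ratio was 1.03 (0.995 to 1.06), the nearest to equality of any pro-survival member there. Bcl2 spans 176097 bases and D630008O14Rik lies within it on the other strand; whether reads from introns were counted is not given in the sources used here, which could raise such a long gene.

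Bcl2l1, which encodes Bcl-xL (chr2:152780668-152831728, minus strand), was highest in neutrophil-like cells, at 256 CPM in the PKCi library and 263 CPM in the solvent library. T cell-like cells followed with 199 and 179.6 CPM and macrophage-like cells with 103 and 110.3 CPM. The main population was low, at 22.8 and 24.6 CPM. In none of the 4 compared classes did the ratio leave the range 0.89 to 0.97. Outside them, the NK cell-like ratio was 0.45 (0.23 to 0.84), from 17 and 32 UMIs, and the endothelial-like ratio 0.39 (0.13 to 1.15), from 8 and 9 UMIs.

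Bcl2a1b (chr9:89199209-89207827, plus strand) encodes a mouse form of A1/Bfl-1, an inducible pro-survival protein of blood cells. Over the 4 compared classes it had the largest ratio of any member. It lies near 2 close copies, Bcl2a1a and Bcl2a1d, that were not on the member list. Transcripts of Bcl2a1b are 98.2% identical to those of Bcl2a1a and 99.1% to those of Bcl2a1d, and only 42.4% of 50-base windows of Bcl2a1b occur in neither copy, so their UMIs cannot be fully told apart. The promoters are shown because all 3 copies were found in the myeloid classes. The windows below, from RefSeq on GRCm38.p6, lie upstream of each start at chr9:89199095-89199162 (plus), chr9:88956786-88956853 (plus) and chr9:88731917-88731984 (minus), and capitals mark GAGGAAGT, a form of the site bound by PU.1, a transcription factor of myeloid cells.
Bcl2a1b: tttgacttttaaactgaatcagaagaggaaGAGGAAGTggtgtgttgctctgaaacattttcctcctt
Bcl2a1a: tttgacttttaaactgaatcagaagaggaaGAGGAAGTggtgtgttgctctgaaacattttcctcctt
Bcl2a1d: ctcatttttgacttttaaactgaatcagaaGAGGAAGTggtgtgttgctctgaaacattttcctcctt
The Bcl2a1b and Bcl2a1a windows are identical over 68 bases, and all 62 bases that align with Bcl2a1d are identical. Gaps are not counted among aligned bases. The Bcl2a1d window lacks the gaggaa that stands just before the marked site in Bcl2a1b and Bcl2a1a. Searched on both strands with no other motif, GAGGAAGT occurs in 3.20% of the 32851 promoters of 300 bases. Of the members, 9 have promoter entries there, 14 in all, and 2 of these 14 hold it, from Bak1 and Bcl2a1b. A match is a match of letters and says nothing of binding.

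By the mean of both libraries dendritic cell-like cells were first for Bcl2a1b, with 1226 CPM in the PKCi library and 1674 CPM in the solvent library. Neutrophil-like cells, which were above them in the PKCi library, held 1519 and 448 CPM, monocyte-like cells 817 and 594 CPM, and macrophage-like cells 502 and 346 CPM. T cell-like (373 and 299 CPM) and NK cell-like cells (179 and 224 CPM) came next. Non-leukocytes were lowest, with 0 and 7 UMIs in fibroblast-like cells and 1 and 0 UMIs in endothelial-like cells. The level was thus higher in PKCi for 4 leukocyte classes (neutrophil-, macrophage-, monocyte- and T cell-like) and lower for the dendritic cell-like and NK cell-like classes, whose ratios were 0.73 (0.64 to 0.84) and 0.80 (0.61 to 1.06).

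In monocyte-like cells the Bcl2a1b ratio was 1.38 (1.31 to 1.45), and in macrophage-like cells 1.45 (1.36 to 1.55). The log2 ratio of Bcl2a1b stayed within 0.32 to 0.69 under 11 alternatives in the first class. In the second it stayed within 0.21 to 0.65 under 13. Thinned to 5000 UMIs, 85.1% of PKCi and 69.2% of solvent monocyte-like cells held a UMI of it, as did 80.5% and 65.6% of macrophage-like cells. Unthinned, the shares were 79.9% and 72.0%, then 86.3% and 80.5%. Cells of the main population, at 5000 UMIs, held one in 0.638% and 0.35% of cases. The copies had larger ratios: Bcl2a1a had 274 and 135 CPM in monocyte-like cells (2.03 times) and 135 and 61.6 CPM in macrophage-like cells (2.19 times). Bcl2a1d had 385 and 208 CPM in monocyte-like cells (1.85 times) and 139.7 and 77.1 CPM in macrophage-like cells (1.81 times). In T cell-like and NK cell-like cells Bcl2a1a was at or near 0 (5 and 0 UMIs, then 0 and 0), while Bcl2a1d reached 182 and 208 CPM in T cell-like cells. Summed monocyte markers in monocyte-like cells were 1948 CPM in PKCi and 2580 CPM in solvent, and macrophage markers 1598 and 2751 CPM. Neutrophil markers there were 514 and 1151 CPM and the platelet list 2900 and 7618.5 CPM. The part of these differences in the monocyte-like ratios was not tested.

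In neutrophil-like cells Bcl2a1b stood at 3.39 times its solvent level in the PKCi library (2.99 to 3.85), with Bcl2a1a at 2.86 and Bcl2a1d at 3.91 times. The 2 libraries filled different clusters of this class. The cluster led by G0s2, Hdc and Cxcr2 held 136 PKCi cells and 23 solvent cells, and there Bcl2a1b was 1640 CPM in PKCi cells (1499 to 1790.3) and 1951 CPM in solvent cells (1638 to 2306), a ratio of 0.84 (0.69 to 1.02). The cluster led by Stfa genes and Retnlg held 28 and 144 cells, with 959 and 511 CPM and a ratio of 1.88 (1.34 to 2.58). The cluster led by Retnlg, S100a8 and Ngp held 3 and 100 cells, with 256 and 169.8 CPM. Across clusters, then, the direction was not shared, and the part of cluster make-up in the class ratio was not tested. PKCi cells of this class were also shallower, with a median of 2004 UMIs against 3372 in solvent cells, and their summed neutrophil markers were 61518 CPM against 153270 CPM.

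**Figure D2:**
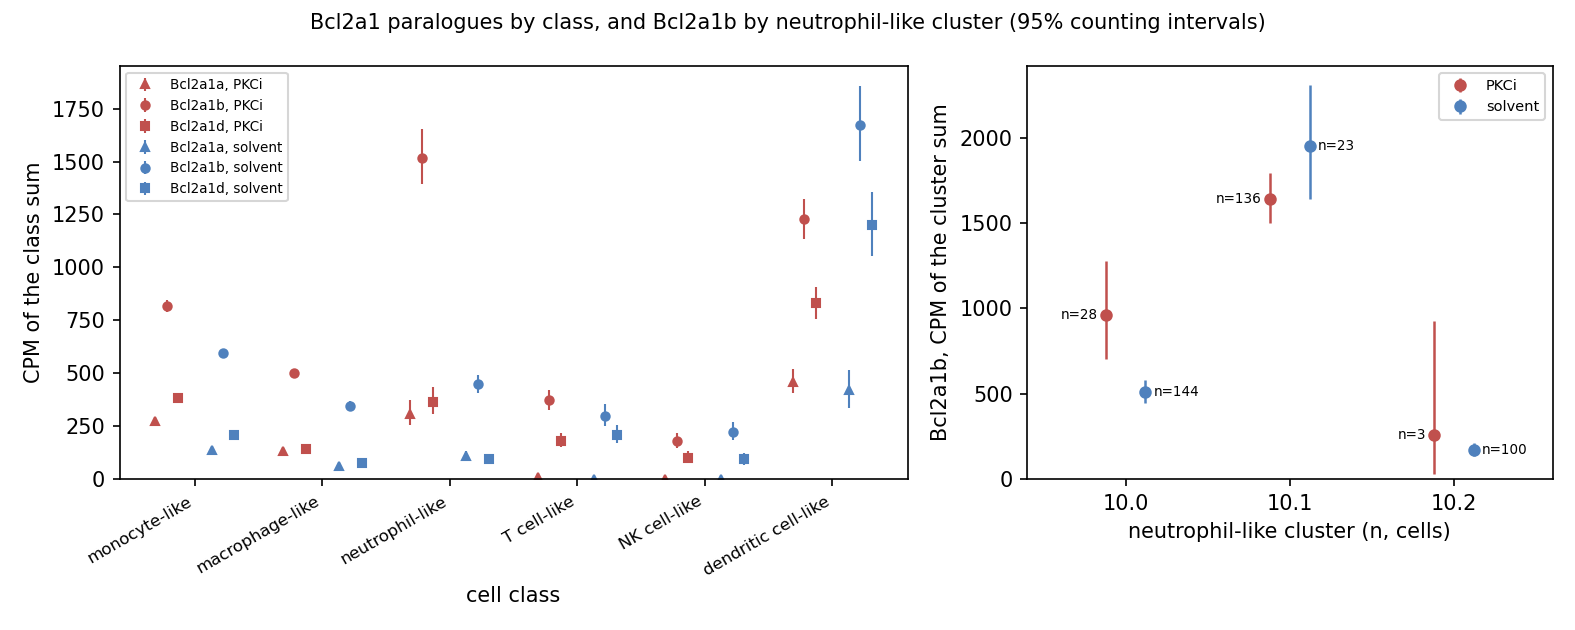
Left, CPM of Bcl2a1a, Bcl2a1b and Bcl2a1d (triangles, circles, squares) in 6 leukocyte classes, PKCi in red and solvent in blue; right, CPM of Bcl2a1b in the 3 neutrophil-like clusters, with cell numbers. Bars are 95% Poisson intervals of counting error; the class values of 1519 and 448 CPM in neutrophil-like cells stand beside cluster values of 1640 and 1951 CPM in the cluster drawn in the middle.

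In the main population Bcl2a1b gave 399 UMIs in the PKCi library and 191 UMIs in the solvent library, or 1.9 and 0.94 CPM. Its mean there was 0.0990% of the dendritic cell-like level. Leukocyte genes lay on both sides of that. Ptprc, the leukocyte surface phosphatase CD45, was at 0.105% of its highest class, Tyrobp at 0.134%, Fcer1g at 0.256% and Lyz2 at 0.271%. S100a8 and Cd3e were lower, at 0.0215% and 0.0228%. In PKCi and solvent cells of the main population Ptprc was 1.3 and 1.0 CPM, C1qa 7.3 and 3.1 CPM, and S100a8 1.5 and 12.9 CPM. The Bcl2a1b level lies within their span and is read as background, and the ratio of 2.05 (1.72 to 2.45) is given with that limit. Free RNA and missed doublets were not told apart as its source; with called doublets kept, the log2 ratio was 1.37 in place of 1.04. Bcl2l1, Bcl2l11 and Mcl1, at 9.12%, 9.29% and 9.59% of their highest class, lay far above that range.

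Counted together, the 4 pro-survival genes made up different mixtures by class. UMIs are not scaled by length, since each molecule is counted once at its 3' end. In the main population Mcl1 supplied 75.9% of their UMIs in the PKCi library and 76.6% in the solvent library, Bcl2 15% and 14.2%, and Bcl2l1 8.42% and 8.82%. Monocyte-like cells held nearly all of them as Mcl1 (50.9% and 61.0%) and Bcl2a1b (45.3% and 34.7%). Dendritic cell-like cells had Bcl2a1b as the largest share (67.3% and 67.6%), and NK cell-like cells Bcl2 (50.6% and 39.0%). T cell-like cells were the most even, with Bcl2 at 31.4% and 24.8%, Bcl2a1b at 30.9% and 31.8%, Mcl1 at 21.3% and 24.3% and Bcl2l1 at 16.5% and 19.1%. The Bcl2a1b share was larger in PKCi in the monocyte-, macrophage- (38.7% and 32.9%) and neutrophil-like classes (36.2% and 16.8%), with intervals apart in each. The shares are parts of 1 sum: the Mcl1 share was 57.7% and 73.2% in neutrophil-like cells, where the ratio of its level was 1.24. In the Cxcr2 cluster, 497 Bcl2a1b UMIs stood beside 713 of Mcl1 in PKCi cells, and 137 beside 175 in solvent cells.

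**Figure D3:**
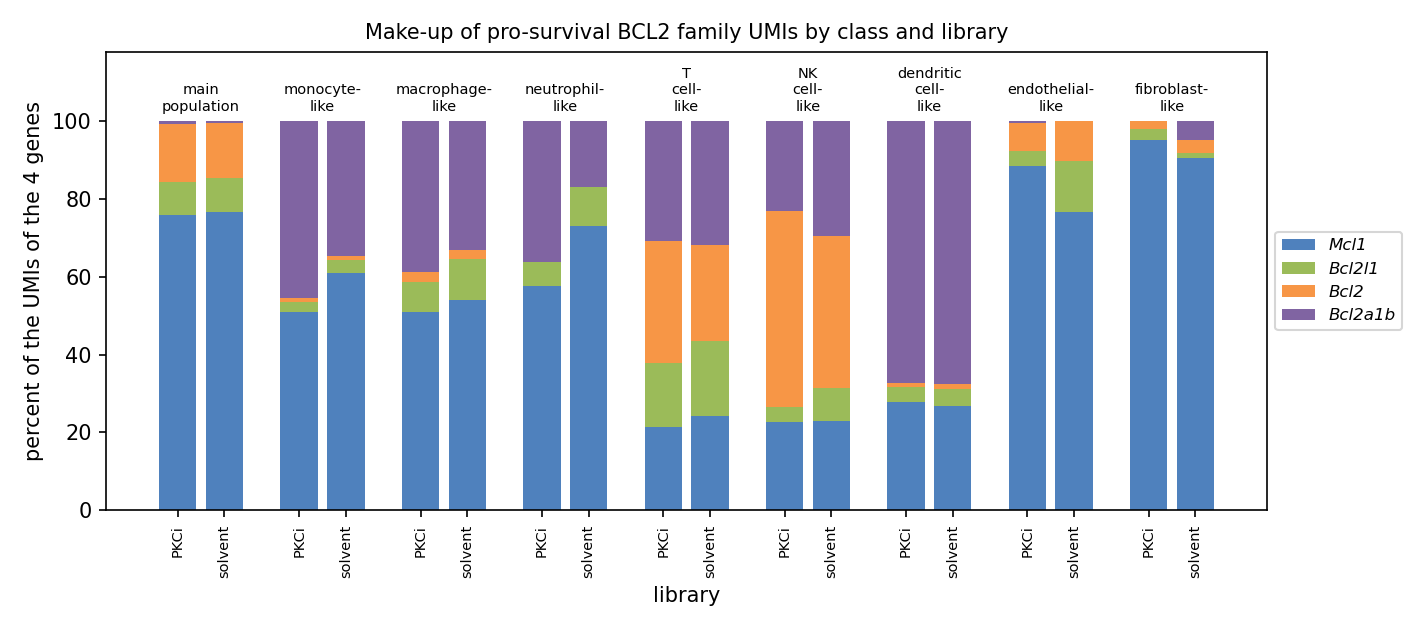
Percent of the UMIs of Mcl1, Bcl2l1, Bcl2 and Bcl2a1b taken by each gene, per class, with the PKCi bar left of the solvent bar. Mcl1 takes 75.9% and 76.6% in the main population, and the Bcl2a1b part of the neutrophil-like bar is 36.2% in PKCi and 16.8% in solvent.

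Bax (chr7:45461697-45466898, minus strand), the effector that moves from the cytosol to the membrane, was found in every class, and no neighbouring classes in its order had intervals apart in both libraries. By the mean of both libraries it was highest in monocyte-like cells, at 259 CPM in the PKCi library and 249.6 CPM in the solvent library. The main population held 134 and 132 CPM, a ratio of 1.02 (1.003 to 1.04). Endothelial-like cells had 293 and 158 CPM. Neutrophil-like cells were lowest by that mean, with 47.4 and 129 CPM from 17 and 130 UMIs, though fibroblast-like cells were lower in the solvent library (119 and 87.2 CPM). The neutrophil-like ratio was 0.37 (0.21 to 0.61), and it was below 1 in both larger clusters as well: 104 and 214 CPM in the Stfa cluster (5 and 97 UMIs) and 39.6 and 85.4 CPM in the Cxcr2 cluster (12 and 6 UMIs), each with an interval that includes 1. In macrophage-like cells Bax was 176 and 240.1 CPM, a ratio of 0.73 (0.67 to 0.80).

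Bak1 (chr17:27019810-27029009, minus strand), the effector that sits in the membrane, was 42.0 CPM in PKCi cells of the main population and 41.8 CPM in solvent cells, and the ratio was 1.00 (0.97 to 1.03). In monocyte-like cells it was 71.2 and 60.1 CPM and in macrophage-like cells 66.1 and 67.9 CPM. Dendritic cell-like cells had 69.6 and 124 CPM, from 39 and 26 UMIs. In neutrophil-like cells only 5 and 24 UMIs were seen, and the ratio of 0.58 had an interval of 0.17 to 1.56. Ggnbp1 overlaps Bak1 on the other strand.

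Bcl2l11 (chr2:128126038-128162547, plus strand) was the most abundant BH3-only gene by UMIs in both libraries in the 4 compared classes. Neutrophil-like cells held 886 CPM in the PKCi library and 709 CPM in the solvent library, apart from the next class. NK cell-like (402 and 262), monocyte-like (305 and 250.3), T cell-like (214 and 228), macrophage-like (183 and 113), endothelial-like (163 and 138) and dendritic cell-like cells (129 and 157 CPM) followed. The main population held 77.3 and 70.9 CPM, a ratio of 1.09 (1.07 to 1.11). The ratio was 1.22 in monocyte-like (1.13 to 1.32), 1.25 in neutrophil-like (1.09 to 1.43) and 1.62 in cells called macrophage-like (1.45 to 1.82), against 0.94 in T cell-like (0.72 to 1.22) and 0.82 in dendritic cell-like cells (0.54 to 1.28). The monocyte-like log2 ratio, 0.28, was -0.16 at clustering resolution 2.0 and 0.0059 with called doublets kept. In the Cxcr2 neutrophil cluster Bcl2l11 was lower in PKCi, at 891 and 1367 CPM, a plain ratio of 0.65 (0.51 to 0.83).

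For macrophage-like Bcl2l11, the share of cells with a UMI at 5000 UMIs was 43.0% of 481 PKCi cells (38.6 to 47.6%) and 30% of 160 solvent cells (23.0 to 37.7%), intervals that are apart. They overlapped without thinning, at 62.6% (58.5 to 66.7%) and 51.9% (44.4 to 59.3%), and at 2000 UMIs, at 24.0% (20.4 to 27.8%) and 18% (12.6 to 24.4%). Cluster 09 alone, which holds 538 and 168 of these cells, gave 184 and 115 CPM and a ratio of 1.60. At a coarser clustering, in which no monocyte-like class forms, the log2 ratio of Bcl2l11 was 0.17 in place of 0.70 and that of Pmaip1 0.10 in place of 0.64. Summed macrophage markers in this class were 11175 CPM in PKCi and 15870 CPM in solvent, monocyte markers 904 and 1206 CPM, and the platelet list 4002 and 10129 CPM; their part in the result was not tested.

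Bbc3 (chr7:16308393-16318205, plus strand) had the largest ratio among the 8 members above background in the main population. It stood at 23.3 CPM in the PKCi library (22.6 to 24.0) and 17.9 CPM in the solvent library (17.3 to 18.5), from 4813 and 3633 UMIs, a ratio of 1.30 (1.25 to 1.36). The level was higher in PKCi in 9 of 9 clusters of at least 100 cells, with ratios of 1.12 to 1.55. These clusters share the same 2 libraries and are not replicates, and the share of all genes higher in 9 of 9 was not counted. Bcl2a1b, read as background in this population, was also higher in 9 of 9, and Bcl2l11 in 8 of 9. The log2 ratios of the 10550 genes with at least 1000 UMIs in this population lay at -0.26 at their 5th percentile and 0.26 at their 95th, and Bbc3 lay at 0.38. In the leukocyte classes Bbc3 was thinly counted: 22.3 and 18.5 CPM in monocyte-like, 13.9 and 14.6 CPM in macrophage-like and 16.7 and 19.9 CPM in neutrophil-like cells, each with a ratio interval that includes 1. Krt8 was 34.3 and 27.1, 90.5 and 45.6, and 61.3 and 38.7 CPM in these classes, against 481 and 380 CPM in the main population. The part of main population RNA in low leukocyte levels, such as those of Bbc3, Bax and Bak1, was not tested.

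Bid (chr6:120891930-120916853, minus strand) was the lowest member that exceeded background in the main population, at 7.6 CPM in the PKCi library and 7.5 CPM in the solvent library, a ratio of 1.02 (0.95 to 1.09). No class exceeded the NK cell-like values of 13.8 and 26.4 CPM on average, and no neighbouring classes were apart. Macrophage-like cells held 11.3 and 14.0 CPM and monocyte-like cells 5.9 and 7.9 CPM. Bcl2l13, another gene of the family, overlaps Bid on the other strand.

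Pmaip1 was mostly a leukocyte transcript here. Dendritic cell-like cells held 439 CPM in the PKCi library and 323 CPM in the solvent library, apart from the T cell-like cells at 139.3 and 122 CPM. Neutrophil-like (117 and 80.4), monocyte-like (66.6 and 63.8) and macrophage-like cells (50.9 and 32.7 CPM) followed. The macrophage-like ratio was 1.56 (1.26 to 1.94), from 380 and 114 UMIs, while the monocyte-like ratio was 1.04 (0.89 to 1.23). The main population gave 76 of 206626225 UMIs in PKCi and 45 of 203005022 in solvent, 0.37 and 0.22 CPM or 0.0773% of the dendritic cell-like level. That is below Ptprc (0.105%) and above S100a8 (0.0215%) and Cd3e (0.0228%). It is within the span of the leukocyte genes given for Bcl2a1b and is likewise read as background.

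**Figure D4:**
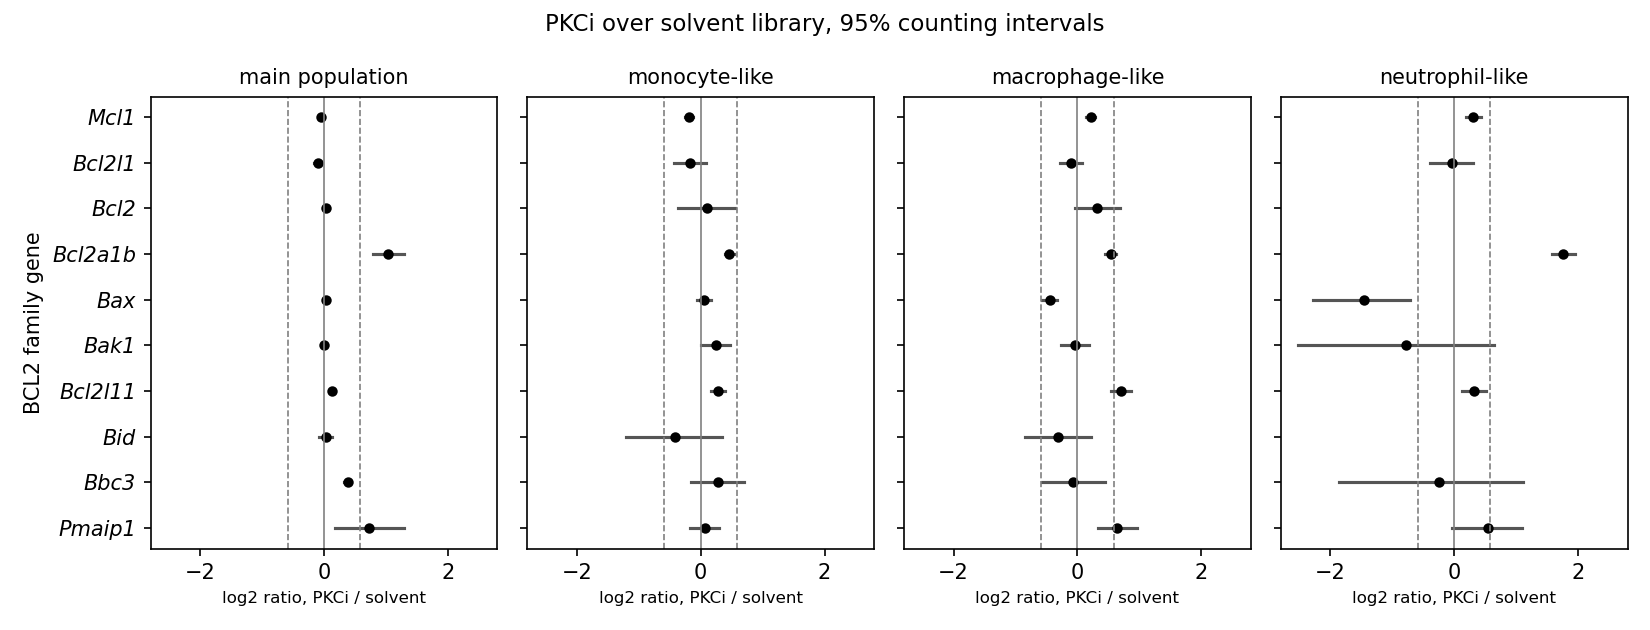
Log2 ratio of PKCi over solvent for each member in the 4 classes with at least 100 cells per library; bars are 95% counting intervals, dashed lines mark 1.5 times. Bcl2 and Bid are not drawn for neutrophil-like cells, where they had under 20 UMIs; Bcl2a1b stands at 1.76 there, and Bbc3 at 0.38 in the main population.

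The members were set beside the whole transcriptome by a rule of size, 1.5 times either way with at least 20 UMIs over both libraries. In the main population 2 of 10 members passed, Bcl2a1b and Pmaip1, both higher in PKCi and both at background levels; 12.6% of all 17691 genes passed, 5.33% higher and 7.25% lower. Monocyte-like cells had 0 of 10, against 21.8% of 10681 genes (12.8% higher, 8.98% lower). In macrophage-like cells 2 of 10 passed, Bcl2l11 and Pmaip1, both higher, against 20.5% of 11526 genes (12.9% higher, 7.57% lower). Of 8 members counted in neutrophil-like cells, Bcl2a1b passed upward and Bax and Bak1 downward, against 43.1% of 4951 genes (27.2% higher, 15.9% lower). The share of members was near that of all genes in macrophage-like and neutrophil-like cells. It was below it in monocyte-like cells and above it in the main population. With at most 10 members per class, no result about the members is read from these shares. The median log2 ratio of the members was 0.03 in the main population (all genes -0.03), 0.08 in monocyte-like (0.12), 0.09 in macrophage-like (0.03) and 0.14 in neutrophil-like cells (0.18).

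Within the main population, the clusters differed more than the libraries did in Bcl2l11, Bcl2 and Mcl1. Bcl2l11 ran at 151 CPM in PKCi cells and 146 CPM in solvent cells of the cluster led by Ptn, Sema3a and Ly6c1. It was 31.0 and 29.9 CPM in the cluster led by Srm, Dnph1 and Psmb3, a span of 4.87 times. Bcl2 spanned 3.41 times by the mean of both libraries. It was 56.1 and 52.4 CPM in the cluster led by Elovl6, Kif20b and Plk1, genes of lipid synthesis and mitosis. In the Srm cluster it was 15.6 and 16.2 CPM. The Ptn cluster held 58.5 CPM of Bcl2 in PKCi cells (55.3 to 61.9) and 44.9 CPM in solvent cells (41.8 to 48.2). In the PKCi library that was above the Plk1 cluster. Mcl1 spanned 1.96 times, with 330.4 and 291 CPM in the Ptn cluster and 149 and 169 CPM in the Srm cluster. Bbc3 was lowest by the mean of both libraries in the Plk1 cluster, at 13.5 and 11.6 CPM. It was highest by that mean in a cluster led by unnamed transcripts, Dlgap1 and Ank2, at 28.4 and 19.5 CPM. Bax and Bak1 were the most even, spanning 1.31 and 1.46 times. By the mean of both libraries, the Srm cluster held the lowest Mcl1, Bcl2 and Bcl2l11 and the highest Bax (158 and 148 CPM) and Bak1 (53 and 53.4 CPM). A cluster led by Mmp3, Adm and Ndrg1 held 104 PKCi and 366 solvent cells; there Mcl1 was 219 and 283 CPM and Bcl2l11 87.2 and 63.4 CPM.

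**Figure D5:**
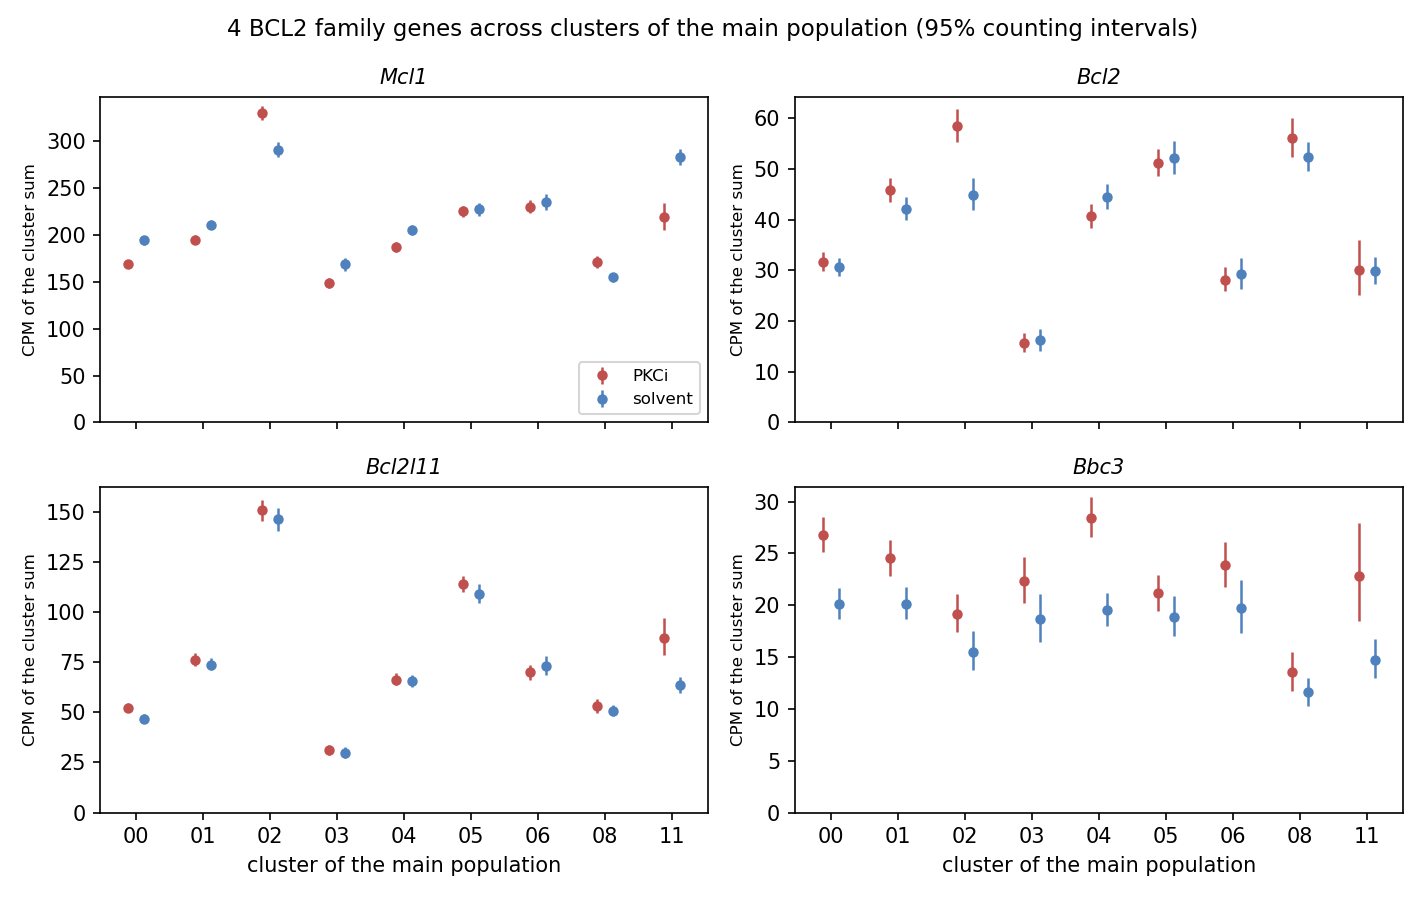
CPM of Mcl1, Bcl2, Bcl2l11 and Bbc3 in the 9 clusters of the main population with at least 100 cells, PKCi in red left of solvent in blue, with 95% counting intervals. Bcl2l11 spans from 31.0 and 29.9 CPM in cluster 03 to 151 and 146 CPM in cluster 02, while Bbc3 is higher in PKCi in all 9 clusters.

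Other genes of the pathway give the setting. Of 15 further family genes, 13 were counted in the main population. Of these, 2 passed upward and 2 downward, against 5.33% and 7.25% of all 17691 genes. The first are Bcl2a1a and Bcl2a1d at background levels, and the others Bcl2l14, with 4 and 16 UMIs, and Bnip3. Bnip3, a BH3-like mitophagy gene that is induced by low oxygen, was 28.4 CPM in PKCi and 54.4 CPM in solvent, a ratio of 0.52 (0.51 to 0.54). It was also lower in monocyte-like (142 and 267 CPM) and neutrophil-like cells (111 and 371 CPM). In macrophage-like cells 0 of 9 counted further family genes passed downward, against 7.57% of all 11526 genes. The libraries filled the main population cluster led by Mmp3, Adm and Ndrg1 unequally (104 PKCi and 366 solvent cells), as they did the neutrophil-like clusters. Bnip3 is not given by cluster, and the part of this make-up in its ratios was not tested. Bok, an effector-like member, was 49.6 and 38.6 CPM in the main population, and Bad, a BH3-only gene, 57.6 and 53 CPM.

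Downstream of the mitochondrion, Cycs, encoding cytochrome c, was 239 and 249 CPM in PKCi and solvent cells of the main population, and Apaf1, which forms the apoptosome, 20.2 and 21.8 CPM. None of 8 death receptor genes passed there, against 12.6% of all genes of that population. In neutrophil-like cells 3 of 5 passed upward, Fas (415 and 212 CPM), Tnfrsf1a (184 and 113 CPM) and Casp8 (109 and 59.6 CPM). On the mitochondrial side of those cells 3 of 6 passed downward, Cycs (58.5 and 97.3 CPM), Vdac1 (39.0 and 81.4 CPM) and Vdac2 (36.2 and 98.3 CPM). Over all genes of that class 27.2% passed upward and 15.9% downward, and its clusters were filled unequally by the libraries (28 and 144, 136 and 23, and 3 and 100 cells), whose part in these counts was not tested.

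Among 11 counted transcription factors that act on members, none passed in the main population, against 12.6% of all genes there. Trp53, encoding p53, was 143 and 145 CPM, Foxo3, which acts on Bcl2l11 and Bbc3, 31.8 and 41.8 CPM, and Atf4, of the integrated stress response, 316 and 273 CPM. Nfkb1, a subunit of NF-kappa-B, which drives Bcl2a1, was 564 and 341 CPM in macrophage-like cells and 1232 and 393 CPM in neutrophil-like cells. Over all genes, 12.9% of the first class and 27.2% of the second passed upward. The libraries filled the neutrophil-like clusters unequally, and Nfkb1 is not given by cluster. Any link between Nfkb1 and the Bcl2a1b level was not tested. Of 13 counted p53 targets in the main population, Sesn2 (60.5 and 29.4 CPM, a ratio of 2.06) and Eda2r (2.6 and 1.2 CPM, 2.16) passed upward. Over all genes there, 5.33% passed upward. Sesn2 is also a target of Atf4. Cdkn1a, the p21 cell cycle inhibitor, was 57.0 and 49.9 CPM and Mdm2 55.7 and 60.9 CPM. In macrophage-like cells 6 of 12 p53 targets passed upward and 1 downward, with Cdkn1a at 506 and 291 CPM and Gadd45a at 25.9 and 8.0 CPM, and Phlda3 lower, at 6.3 and 19.2 CPM; over all genes of that class 12.9% passed upward and 7.57% downward. Of 12 counted genes that act on the stability or partners of the members, none passed in the main population, against 12.6% of all genes. Huwe1, a ubiquitin ligase for Mcl-1, was 194 and 212 CPM there.

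The genes whose log2(CPM + 1) followed each member most closely over the 18 class sums, among 7098 genes on no list, are given by member. For Mcl1 these were A530064D06Rik (Pearson r of 0.97), Sirpb1b and Cd14. Bcl2a1b was closest to Ncf4, Sema4a and Ptpn6 (0.97, 0.97 and 0.96), and Bcl2 to Pkp4, Ctla4 and Abcb1b (0.94, 0.93 and 0.92). Pmaip1 was closest to Mkrn1, Jaml and Gpr132 (0.94, 0.91 and 0.90) and Bcl2l11 to Cript, Vasp and Chd7 (0.92, 0.91 and 0.89). Bcl2l1 was closest to Ncoa3, Rbks and Retreg1 (0.92, 0.92 and 0.89). Bak1 led with Lactb (0.91), Bid with Armc7 (0.87) and Bax with Rnpep (0.85), while the closest gene to Bbc3 reached 0.69, A930015D03Rik. These 18 sums share 2 libraries and differ in depth, so the values are descriptions.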

How the data were processed

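The deposited UMI counts, a whole number for each gene in each barcode, came from Cell Ranger 7.0.0, per the file headers; the chemistry was 10x 3' version 3.1, per the labels' protocols, and the submitters' processing notes name GRCm38, Cell Ranger and Seurat without saying what Seurat did. The annotation release and the counting of introns are not given in the sources used here. Reads were not used.

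Filters removed barcodes with under 500 genes (200 PKCi, 247 solvent), those above 20% mitochondrial UMIs (47 and 61) and doublets called by Scrublet in scanpy 1.11.5 at an expected rate of 6% (132 and 111 barcodes, 1.83% and 1.74%). Counts were scaled to 10000 per cell and logged; 2000 variable genes without any listed apoptosis gene, 30 components and 15 neighbours gave Leiden clusters at resolution 1.0, and mixed clusters were split at 0.5. A class name needed a mean relative marker level of 0.35, at least 3 markers at 50 CPM and Krt8 under 250 CPM; these limits were chosen with the data in view. Unnamed cells (230 and 183) enter no comparison.

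Raw counts were summed per class and library. Levels carry exact Poisson intervals, ratios exact conditional binomial intervals and shares Clopper-Pearson intervals, all at 95%; log2 ratios add 0.5 count. UMIs are counts of molecules, yet intervals cover counting error only. The ratio code was tested on simulated counts. Named genes are the 10 members and, in the other lists, those with the 2 highest and 2 lowest ratios or past 1.5 times; not all of these are printed, and some listed genes are not reported here. Bok, Cycs, Apaf1, Bad, Trp53, Atf4 and Huwe1 were named for their roles. Genes of like pattern are the 3 with the highest Pearson correlation. The members and lists were chosen with earlier results of these data known. Python 3.11.15, numpy 2.4.6 and scipy 1.17.1 were used; positions are from GENCODE M21 on GRCm38 and promoters from RefSeq. Alternatives covered filters, doublets, clustering, scaling, free RNA and the rule of size.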

Additional observations from a re-analysis of the deposited data

Results flagged for a closer look

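Bcl2a1b was also measured in the cells left unnamed, which entered no comparison. It gave 203 UMIs in 230 PKCi cells and 56 UMIs in 183 solvent cells, or 87.4 and 31.1 CPM, a ratio of 2.81 (2.08 to 3.85). Bcl2a1a, with 67 and 15 UMIs, and Bcl2a1d, with 92 and 20 UMIs, had ratios of 3.46 and 3.56 in the same cells. One unnamed cluster, of 33 PKCi cells and 3 solvent cells, had both copies among its 10 leading genes, beside Lyz1, Inhba and Clec5a. Mcl1 was 305 and 304 CPM in the unnamed cells. The part of that cluster in the ratio was not tested.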

How the results depend on the processing

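No paired analysis was possible because each treatment has 1 library. Of the members past 1.5 times, the main population had 1 in place of 2 with at least 1000 genes per cell and 1 at a fold of 2. Monocyte-like cells had 2 in place of 0 at resolution 2.0 and 1 with cells assigned by their own markers; the class did not form at resolution 0.5. Macrophage-like cells had 0 in place of 2 at resolution 0.5 and at a fold of 2, and 1 with each cell weighted equally. Neutrophil-like cells had 5 in place of 3 with no UMI minimum. In single neutrophil-like clusters, chosen after seeing the data, the log2 ratio of Bcl2a1b was -0.25 in the Cxcr2 cluster (1.76 over the class, and up to 2.64 at a 10% mitochondrial limit) and that of Bak1 0.92 in the Stfa cluster (-0.67). The causes were not tested. Under 13 alternatives Bbc3 in the main population stayed within 0.35 to 0.40, Bcl2l11 in macrophage-like cells within 0.17 to 0.82 and Pmaip1 there within 0.10 to 0.80; under 14, Bax in neutrophil-like cells stayed within -1.84 to -0.91. Depth limits Bid, Bak1, Bbc3 and Bcl2 in neutrophil-like cells, each under 30 UMIs over both libraries.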

Other observations

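Pathway genes beyond the members differed in leukocytes as well. In neutrophil-like cells Cdkn1a was 1538 CPM in the PKCi library and 613 CPM in the solvent library, Btg2, an early-response antiproliferative gene, 1661 and 685 CPM, and Gadd45a, a DNA damage response gene, 228 and 511 CPM. The class is split unevenly over clusters, as given for Bcl2a1b, and the part of that split was not tested. In monocyte-like cells Btg2 was 551 and 296 CPM, Ccng1 35.9 and 21.8 CPM, Mdm2 116 and 176 CPM and Gadd45a 30.7 and 70.9 CPM. In macrophage-like cells Myc was 156 and 93.1 CPM, a ratio of 1.68 (1.48 to 1.90), while the death receptor adaptors Fadd (8.8 and 16.9 CPM) and Tradd (11.8 and 19.5 CPM) were lower in PKCi, from 66 and 59 UMIs and 88 and 68 UMIs. Gadd45a thus had a ratio of 3.22 in macrophage-like cells, 0.43 in monocyte-like cells and 0.45 in neutrophil-like cells; these differences between classes were not tested.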
